A study of Homo sapiens with 12 samples.

Results

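CYP1A1 and the genes of the aryl hydrocarbon receptor (AHR) were followed in diffuse large B-cell lymphoma lines given anti-CD20 antibodies. The set, AHR, ARNT, CYP1A1, CYP1B1, TIPARP and AHRR, was fixed by name with earlier results of these data known. Each symbol matched 1 Ensembl identifier, so the 6 members are 6 of the 58884 genes in the count table. The data are bulk RNA-seq gene counts from 12 libraries of U2932 and TMD8, both wild-type lines of the activated B-cell (ABC) subtype of this lymphoma. Each line was treated for 4 h with 20 µg/mL of rituximab (R), of ofatumumab (OF) or of a human IgG1 isotype control, which gave 6 groups of 2 libraries. R and OF both bind CD20, and the isotype antibody has no intended target on the cells. The 2 replicates of a group came from cultures of 1 cell line that had been split and grown apart before treatment, so the p-values measure the spread between such cultures and not between patients or lines. No untreated library was analysed here, so a lower level with an antibody and a higher level with the isotype control cannot be told apart. The R and OF comparisons within a line share the same 2 isotype libraries.

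AHR is a ligand-activated transcription factor of the bHLH-PAS family that waits in the cytoplasm with HSP90 and other chaperones. After it binds a ligand, such as a polycyclic aromatic compound or a tryptophan metabolite, it moves to the nucleus, pairs with ARNT and binds DNA at a short core motif. Among its best known targets are the cytochrome P450 genes CYP1A1 and CYP1B1, whose enzymes oxidise many of the ligands, and the feedback inhibitors AHRR and TIPARP, which act against the receptor itself. In B cells, as in other immune cells, the induction of CYP1A1 is commonly used as a readout of receptor activity.

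The promoter sequences of the targets are shown because the receptor and ARNT are known to bind the core GCGTG, and the capitals mark that core on the strand of the gene or, where it is read as CACGC, on the other strand. The windows are from RefSeq on GRCh38.p14, each written 5′ to 3′ on the strand of the gene, from 250 bases before to 50 bases after an annotated start. RefSeq windows were matched for 5 of the 6 members, and CYP1B1 was not matched.
CYP1A1: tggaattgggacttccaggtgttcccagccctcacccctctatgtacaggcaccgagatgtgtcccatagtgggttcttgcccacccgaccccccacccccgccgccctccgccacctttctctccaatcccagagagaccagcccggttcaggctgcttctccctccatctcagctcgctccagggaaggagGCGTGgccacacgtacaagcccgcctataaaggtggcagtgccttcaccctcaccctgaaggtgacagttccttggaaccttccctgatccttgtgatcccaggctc
TIPARP: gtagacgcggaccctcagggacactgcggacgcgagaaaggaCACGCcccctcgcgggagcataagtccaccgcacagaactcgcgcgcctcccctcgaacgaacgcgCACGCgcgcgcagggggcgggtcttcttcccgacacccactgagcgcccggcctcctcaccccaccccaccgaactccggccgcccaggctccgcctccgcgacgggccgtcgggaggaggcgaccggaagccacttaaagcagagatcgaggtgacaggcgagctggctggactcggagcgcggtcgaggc
AHRR: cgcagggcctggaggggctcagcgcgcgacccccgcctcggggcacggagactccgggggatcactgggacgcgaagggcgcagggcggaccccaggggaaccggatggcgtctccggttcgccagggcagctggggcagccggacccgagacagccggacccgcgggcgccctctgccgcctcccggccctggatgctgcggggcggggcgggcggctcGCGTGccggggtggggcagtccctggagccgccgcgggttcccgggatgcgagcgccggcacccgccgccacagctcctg
The CYP1A1 window, chr15:74725479-74725778 on the minus strand, held 1 core, which began at position -57 from the start. The TIPARP window, chr3:156674340-156674639 on the plus strand, held 2 cores on the opposite strand, at positions -208 and -142, and the other windows of this gene held 0. The AHRR window, chr5:321464-321763 on the plus strand, held 1 core at position -30, which lies inside the longer form TNGCGTG that the receptor pair is known to favour. A further AHRR window held cores at -247 and -42, the AHR window held 1 at position 38, and the ARNT window held 0. The core was present on either strand in 36.5% of the 35116 RefSeq windows of this length and the longer form in 5.51%, so a match is a description of the letters and not a binding site.

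Total counts ran from 15440226 to 27110612 per library. All 8 B-cell markers had a mean above 1 CPM (the count scaled by library size) in both lines, as did the 3 ABC-subtype markers, whereas 0 of the T-cell, natural killer cell, monocyte and hepatocyte markers did. Of the germinal centre markers, 3 of 3 passed that level in U2932 and 2 of 3 in TMD8. Of the epithelial markers 1 of 3 did in each line, which was EPCAM in U2932 and KRT8 in TMD8, with summed levels of 28.7 to 37.3 CPM in U2932 and 2.28 to 2.74 CPM in TMD8. Of the fibroblast markers 1 of 3 did in TMD8 and 0 in U2932, with sums of 1.1 to 5.64 and of 0.35 to 0.715 CPM. In TMD8 the OF and isotype libraries numbered 2 stood apart: ribosomal protein genes made up 7.16% and 6.5% of all counts in this pair, and from 10% to 10.77% in each other TMD8 library. In U2932 that share was 4.44% and 4.74% in the isotype libraries and 6.03% to 6.56% in the antibody libraries, so it differed with treatment in the same comparison as the genes below, and its part in their values was not tested.

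**Figure D1:**
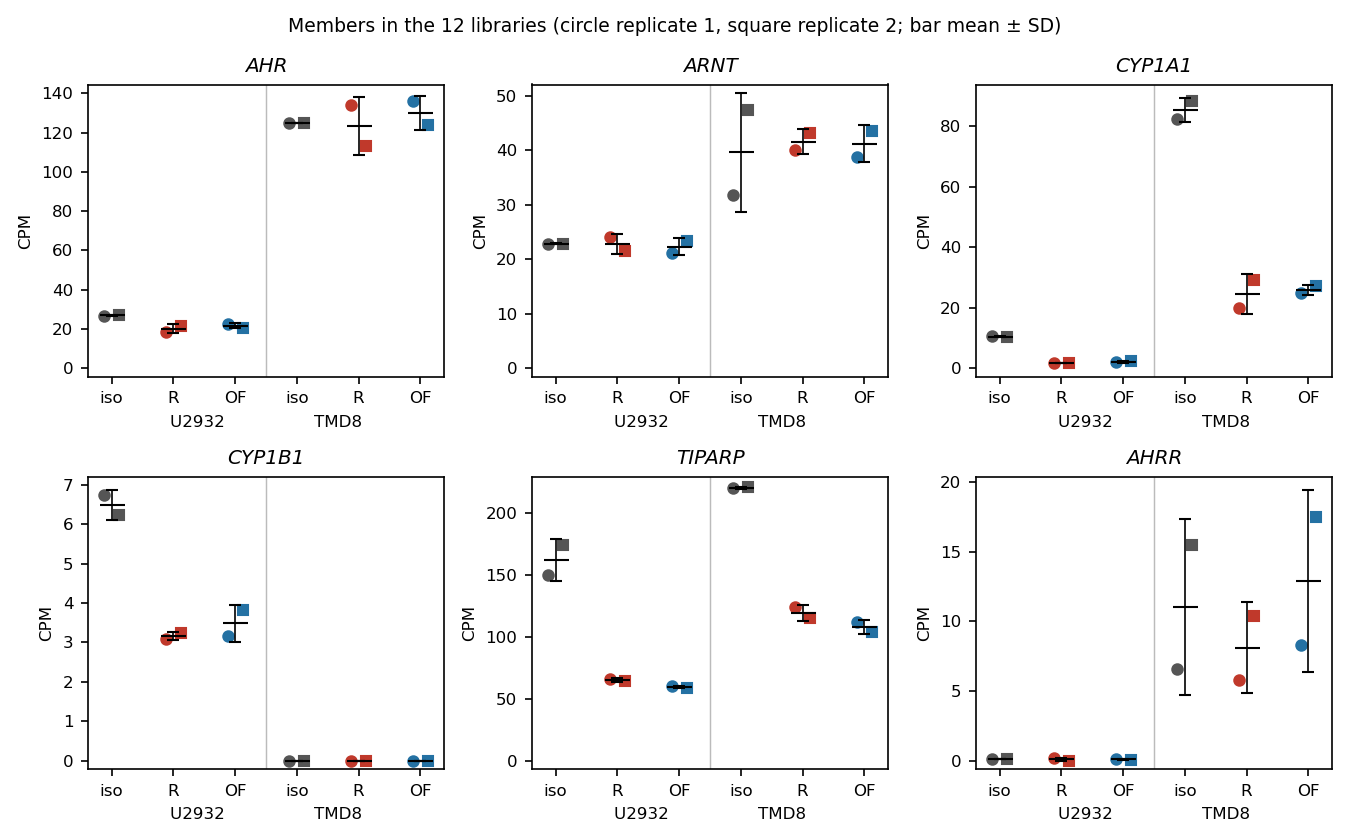
The 6 members in each of the 12 libraries, in CPM after TMM scaling, by cell line and by isotype control (iso, grey), R (red) and OF (blue). Circles are replicate 1, squares replicate 2 and bars the mean ± SD (n = 2). CYP1A1 and TIPARP were lower in every antibody library than in every isotype library of the same line, CYP1B1 was so in U2932, and the AHRR and ARNT groups overlapped in TMD8. The share of all genes that separate in this way was not counted.

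CYP1A1 (ENSG00000140465, chromosome 15, 74719542 to 74725610, minus strand, GRCh38) encodes the P450 enzyme that the receptor induces most strongly in many cells, and it was lower with both antibodies in both lines. In U2932 the 2 isotype libraries had 10.6 and 10.3 CPM (238 and 235 counts), the R libraries 1.74 and 1.75 CPM (31 and 33 counts) and the OF libraries 1.98 and 2.3 CPM (34 and 41 counts). The antibody and isotype groups did not overlap, and the spread within each was small against the gap between them. The share of all genes that separate in this way was not counted, so here and below it describes the values only. By edgeR 5494 of all genes tested had an unadjusted p under 0.05 with R. With R CYP1A1 fell by 2.58 on the log2 scale (SE 0.20, edgeR quasi-likelihood test with Benjamini-Hochberg adjustment, adjusted p = 7.0e-10), a 5.99-fold lower level and the 9th lowest log2 fold change of the 14635 genes tested. In these bulk libraries fewer cells with the transcript and less of it per cell cannot be told apart. With OF it fell by 2.28 (SE 0.20, edgeR adjusted p = 4.4e-09), a 4.85-fold lower level.

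In TMD8 CYP1A1 started from a higher level and moved the same way. The isotype libraries had 82.6 and 88.3 CPM (1448 and 2488 counts), the R libraries 20 and 29.2 CPM (307 and 471 counts) and the OF libraries 24.8 and 27.2 CPM (362 and 422 counts). The lowest isotype library was well above the highest antibody library. The fall was 3.46-fold with R (log2 fold change -1.79, SE 0.21, edgeR adjusted p = 0.0697) and 3.27-fold with OF (-1.71, SE 0.21, edgeR adjusted p = 0.0851). Both adjusted p-values pass the limit of 0.1 used here but not 0.05. They come from a test with no term for culture, although same-numbered libraries came from 1 culture by the study's methods. All 6 TMD8 libraries share 1 estimate of the spread. Without the 2 that stand apart the log2 fold change was -1.76 with R and -1.74 with OF. That fit leaves 1 library each for OF and isotype, so only the size of the change is given. The call with R was lost without either R library, with log2 fold changes of -1.54 and -2.07. Those fits leave 1 R library, and all other genes lost their calls there too, so the loss was not particular to CYP1A1. The call with OF was lost in 6 of 16 alternatives. These were the fits without either R library, either OF library or the isotype library numbered 1, and the fit with library size only. Where a library was left out, all or nearly all other genes lost their calls with OF too.

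TIPARP (ENSG00000163659, chromosome 3, 156673235 to 156706770, plus strand), the ADP-ribosyltransferase that restrains the receptor, had the highest level per kilobase of transcript among the members and moved beside CYP1A1 with smaller folds. In U2932 it had 150 and 174 CPM with the isotype control, 66.3 and 63.9 with R and 59.9 and 58.9 with OF. The antibody groups again lay clear of the isotype group. It fell 2.49-fold with R (log2 fold change -1.32, SE 0.10, edgeR adjusted p = 2.1e-10) and 2.72-fold with OF (-1.44, SE 0.10, edgeR adjusted p = 5.9e-11).

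In TMD8 TIPARP had 220 and 221 CPM with the isotype control, 124 and 115 with R and 112 and 104 with OF, with no overlap between isotype and antibody libraries. With OF it fell 2.04-fold (log2 fold change -1.03, SE 0.15, edgeR adjusted p = 0.0908). This call was lost in 5 of 16 alternatives, without either R library, either OF library or the isotype library numbered 1. All or nearly all other genes lost their calls with OF in those fits too. With R the log2 fold change was -0.88 (SE 0.15, 95% interval -1.24 to -0.52), and the edgeR adjusted p of 0.101 narrowly missed the limit. That test ignores the culture that same-numbered libraries share. With the culture number as a replicate block the same log2 fold change had an edgeR adjusted p of 0.00664 and passed.

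CYP1B1 (ENSG00000138061, chromosome 2, 38066973 to 38109902, minus strand), the P450 that acts on estrogens as well as aromatic hydrocarbons, had counts in U2932 alone. The isotype libraries had 6.75 and 6.22 CPM (151 and 142 counts), the R libraries 3.08 and 3.23 CPM (55 and 61 counts) and the OF libraries 3.15 and 3.82 CPM (54 and 68 counts). Every antibody library was below both isotype libraries. The fall was 2.05-fold with R (log2 fold change -1.04, SE 0.20, edgeR adjusted p = 2.5e-04) and 1.85-fold with OF (-0.89, SE 0.19, edgeR adjusted p = 0.00111). In TMD8 all 6 libraries had 0 counts of this gene, so it was not tested there.

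The opposite-strand transcript CYP1B1-AS1 overlaps CYP1B1, and the strand setting of the counting is not given in the sources used here. It had 3 and 7 counts in the U2932 isotype libraries, 13 and 12 with R and 10 and 10 with OF, which is the other order of groups from CYP1B1, at a few counts per library.

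AHRR (ENSG00000063438, chromosome 5, 304176 to 438291, plus strand), the repressor that competes with the receptor for ARNT, was called with neither antibody. In U2932 it had 2 and 2 counts with the isotype control, 3 and 0 with R and 2 and 1 with OF, and it was not tested there. In TMD8 it had 6.56 and 15.5 CPM with the isotype control (115 and 437 counts), 5.78 and 10.4 with R (89 and 167 counts) and 8.3 and 17.5 with OF (121 and 271 counts). The groups overlapped, and the library numbered 2 was the higher in each of them. The log2 fold change was -0.45 with R (SE 0.52, edgeR adjusted p = 0.71) and 0.22 with OF (SE 0.51, edgeR adjusted p = 0.899). Without the isotype library numbered 2, 1 of those that stand apart, these values were 0.30 and 0.97, so that with R the sign turned, and without the OF library numbered 2, the other of them, the value with OF turned to -0.40. PDCD6 overlaps AHRR on the same strand and had 262 and 801 counts in the TMD8 isotype libraries and 328 and 357 with R.

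AHR (ENSG00000106546, chromosome 7, 16916359 to 17346152, plus strand), the receptor, had 26.8 and 27.1 CPM in the U2932 isotype libraries, 18.5 and 21.7 with R and 22.7 and 20.7 with OF. The isotype libraries were the highest, but the differences were small. With R the log2 fold change was -0.42 (SE 0.11, edgeR adjusted p = 0.00661) and with OF -0.31 (SE 0.11, edgeR adjusted p = 0.0431), which pass the p limit and not the required 1.5-fold. In TMD8 it had 125 and 125 CPM with the isotype control, 134 and 113 with R and 136 and 124 with OF. These groups overlapped, with log2 fold changes of -0.01 (95% interval -0.39 to 0.38) and 0.06 (-0.32 to 0.45).

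ARNT (ENSG00000143437, chromosome 1, 150809705 to 150876768, minus strand), the partner of the receptor and also of the hypoxia factors, was called with neither antibody in either line. In U2932 it had 22.8 and 22.9 CPM with the isotype control, 24.1 and 21.5 with R and 21.2 and 23.4 with OF. The log2 fold changes were -0.00 (95% interval -0.24 to 0.23) with R and -0.03 (-0.26 to 0.21) with OF. In TMD8 it had 31.9 and 47.4 CPM with the isotype control, 40 and 43.2 with R and 38.8 and 43.6 with OF, where the higher isotype value is from a library that stands apart. The log2 fold changes there were 0.08 (-0.42 to 0.57) with R and 0.06 (-0.43 to 0.56) with OF.

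**Figure D2:**
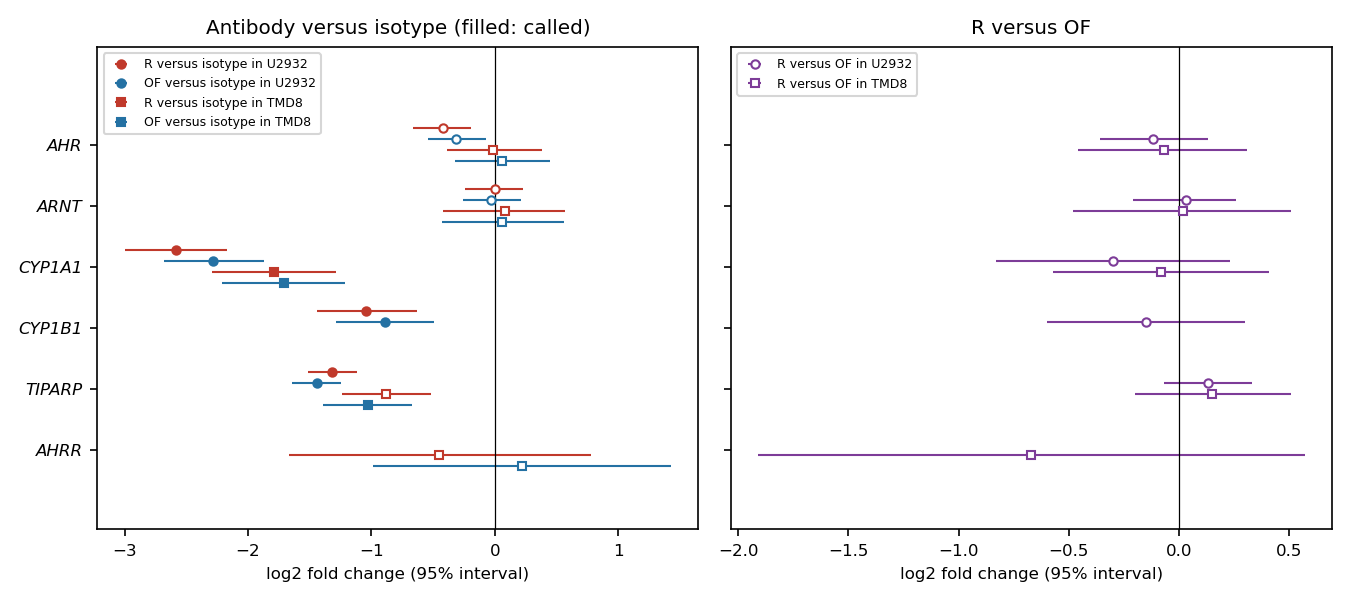
Log2 fold changes of the members with 95% intervals, for each antibody against the isotype control (left) and for R against OF (right), with circles for U2932 and squares for TMD8 and filled symbols for called genes. CYP1A1 lies at -2.58 and -2.28 in U2932 and at -1.79 and -1.71 in TMD8, and every R versus OF interval includes 0.

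A gene is called here at an adjusted p under 0.1 (0.3 for R against OF in U2932) and a fold change of 1.5 or more. By this rule 3 of the 5 members tested in U2932 were called with R, all lower, where 10.2% of the 14635 genes tested were called. With OF the same 3 were called, against 11.1% of all genes. In TMD8 1 of 5 members was called with R against 0.647% of the 14227 genes tested, and 2 of 5 with OF against 0.815%. The members were chosen with earlier results of these data known, so these shares are a description and not independent evidence. With the replicate block 2 of 5 were called with each antibody, and 1565 and 1387 genes in all in place of 92 and 116. The median log2 fold change of the members tested was -1.04 with R and -0.89 with OF in U2932, where the medians of all genes tested were -0.02 and 0.01. In TMD8 the members' medians were -0.45 and 0.06 beside -0.02 and -0.01 over all genes. Genes called lower with R in both lines numbered 15, which is 2.04% of the 734 lower in U2932 and 42.9% of the 35 lower in TMD8, and CYP1A1 was the 1 member among them. With OF there were 24, or 3.15% of 762 and 49% of 49, and CYP1A1 and TIPARP were both among them.

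R and OF differ in the part of CD20 they bind, and their members' levels were set against each other directly. In U2932 0 of the 5 members tested were called between R and OF, where 0.00683% of all genes, a single gene, were called by edgeR and 747 had an unadjusted p under 0.05. DESeq2 also called 1 gene and 0 members there, with 328 genes at an unadjusted p under 0.05. CYP1A1 differed by -0.30 on the log2 scale (R minus OF, 95% interval -0.83 to 0.23), CYP1B1 by -0.15 (-0.60 to 0.30) and TIPARP by 0.13 (-0.07 to 0.33). In TMD8 0 of 5 members and 0% of all genes were called by edgeR, with 582 at an unadjusted p under 0.05, and DESeq2 called 0 with 403. The smallest edgeR adjusted p there was 0.733. The study, which used DESeq2, reports genes that differ between R and OF in TMD8 at a false discovery rate of 0.1. Those were not recovered here, and the reason was not tested. CYP1A1 differed there by -0.08 (-0.57 to 0.41), TIPARP by 0.15 (-0.20 to 0.51) and AHRR by -0.67 (-1.91 to 0.57). These intervals leave room for differences between the antibodies of the stated sizes.

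The levels of these genes also differed between the 2 lines. Per kilobase of the longest transcript, the isotype means in U2932 ran from TIPARP with 38.8 CPM per kb, through ARNT with 4.68, CYP1A1 with 3.9, AHR with 3.87 and CYP1B1 with 1.24, to AHRR with 0.0156. ARNT, CYP1A1 and AHR are neighbours in that order at nearly equal levels. In TMD8 the order was TIPARP 52.8, CYP1A1 31.8, AHR 17.9, ARNT 8.12, AHRR 1.95 and CYP1B1 0 CPM per kb. Between the lines under the isotype control 5 of the 6 members were called, where 56.1% of the 16187 genes tested were. CYP1A1 was 8.16-fold lower in U2932 (log2 fold change -3.03, SE 0.18, edgeR adjusted p = 7.1e-08), AHR 4.63-fold lower (-2.21, SE 0.14, edgeR adjusted p = 1.1e-07) and ARNT 1.74-fold lower (-0.80, SE 0.17, edgeR adjusted p = 0.00195). Without the TMD8 isotype library numbered 2 the ARNT value was -0.48 and no longer passed. TIPARP was 1.36-fold lower in U2932 (-0.44, SE 0.12, edgeR adjusted p = 0.00639), which is under the required 1.5-fold.

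CYP1B1 was counted in U2932 alone, and AHRR was near 0 in U2932. CYP1B1 had 293 counts in the U2932 isotype libraries and 0 in those of TMD8, which is at least 98.8-fold higher in U2932 when the TMD8 group is set to a floor of 3 counts over its 2 libraries. AHRR had 552 counts in the TMD8 isotype libraries and 4 in those of U2932, and the ratio of the levels was 136 (95% interval 53 to 503, counting error only). Without the TMD8 isotype library numbered 2 this ratio was 74.2 (28.2 to 277). With the antibodies CYP1B1 was at least 33.2-fold higher in U2932 with R and at least 35-fold with OF.

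Whether the response itself differed between the lines was tested as an interaction over all 12 libraries. For CYP1A1 the log2 difference in response (U2932 minus TMD8) was -0.79 with R (SE 0.27, unadjusted p = 0.0138, edgeR adjusted p = 0.284), and with OF the difference was -0.57 (SE 0.26, edgeR adjusted p = 0.607). These differences did not pass the limit. For TIPARP they were -0.43 (edgeR adjusted p = 0.341) and -0.41 (edgeR adjusted p = 0.521), and for AHR -0.41 (edgeR adjusted p = 0.422) and -0.37 (edgeR adjusted p = 0.66). By edgeR 0 of the 4 members tested were called for either antibody, where 0.321% of 16187 genes were called with R, with 1924 at an unadjusted p under 0.05, and 0.105% with OF, with 1369. DESeq2 called 448 and 223 genes and 0 members.

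**Figure D3:**
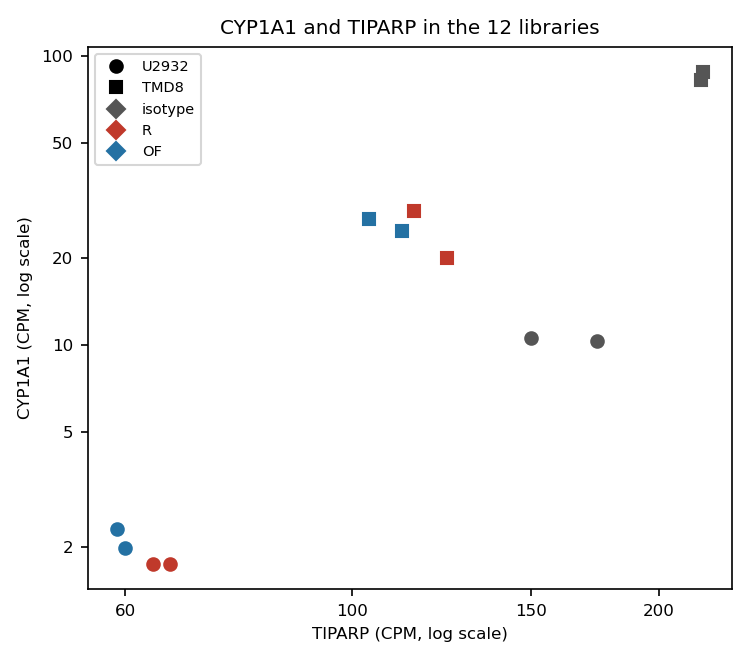
CYP1A1 against TIPARP in the 12 libraries, both in CPM on log axes, with circles for U2932, squares for TMD8 and colours for the isotype control, R and OF. Within each line the 2 isotype libraries lie above and to the right of the 4 antibody libraries, and the antibody libraries of a line lie close together.

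Within a line, CYP1A1 and TIPARP were both higher in the isotype libraries than in the antibody libraries. After centring the log2 CPM of each line on its mean, their Pearson r over the 12 libraries was 0.964, a description, since the libraries share the same 6 conditions. They did not follow each other among the antibody libraries. From U2932 R libraries 1 and 2 to OF libraries 1 and 2, CYP1A1 had 1.74, 1.75, 1.98 and 2.3 CPM, and TIPARP 66.3, 63.9, 59.9 and 58.9. In TMD8 the R library numbered 1 had the lowest CYP1A1 of the antibody libraries (20 CPM) and their highest TIPARP (124 CPM). In each pair of same-numbered cultures CYP1A1 was lower with the antibody than with the isotype control, with log2 ratios from -2.54 to -2.11 in U2932 and from -2.04 to -1.59 in TMD8. For TIPARP these ratios ran from -1.56 to -1.18 in U2932 and from -1.09 to -0.83 in TMD8. CYP1A1 had an r of 0.598 with AHR and -0.0434 with ARNT, and AHRR had one of 0.149 with CYP1A1 and 0.653 with ARNT, both of which are high in the TMD8 libraries that stand apart.

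The genes whose line-centred pattern over the 12 libraries was most like that of CYP1A1, among 16187, were H2BC21 (r = 0.986), H2BC19P (0.979), H2BC15 (0.978), KPNB1 (0.974) and ZNF263 (0.972). The H2BC genes are copies of histone H2B, among which reads can be split. For TIPARP they were H4C8 (0.992), a histone H4 gene, CSGALNACT2 (0.991), PCF11 (0.99), USP38 (0.989) and WDR45B (0.985). For AHR the closest were RRN3P2 (0.913), PSTPIP2 (0.911) and ACRBP (0.903), and for ARNT SMC1A (0.914), KCTD7 (0.91) and B4GALT6 (0.902). For CYP1B1 the closest was ZNF790 (0.991) and for AHRR RASGRF1 (0.938), where 1 line is at or near 0 and adds little.

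**Figure D4:**
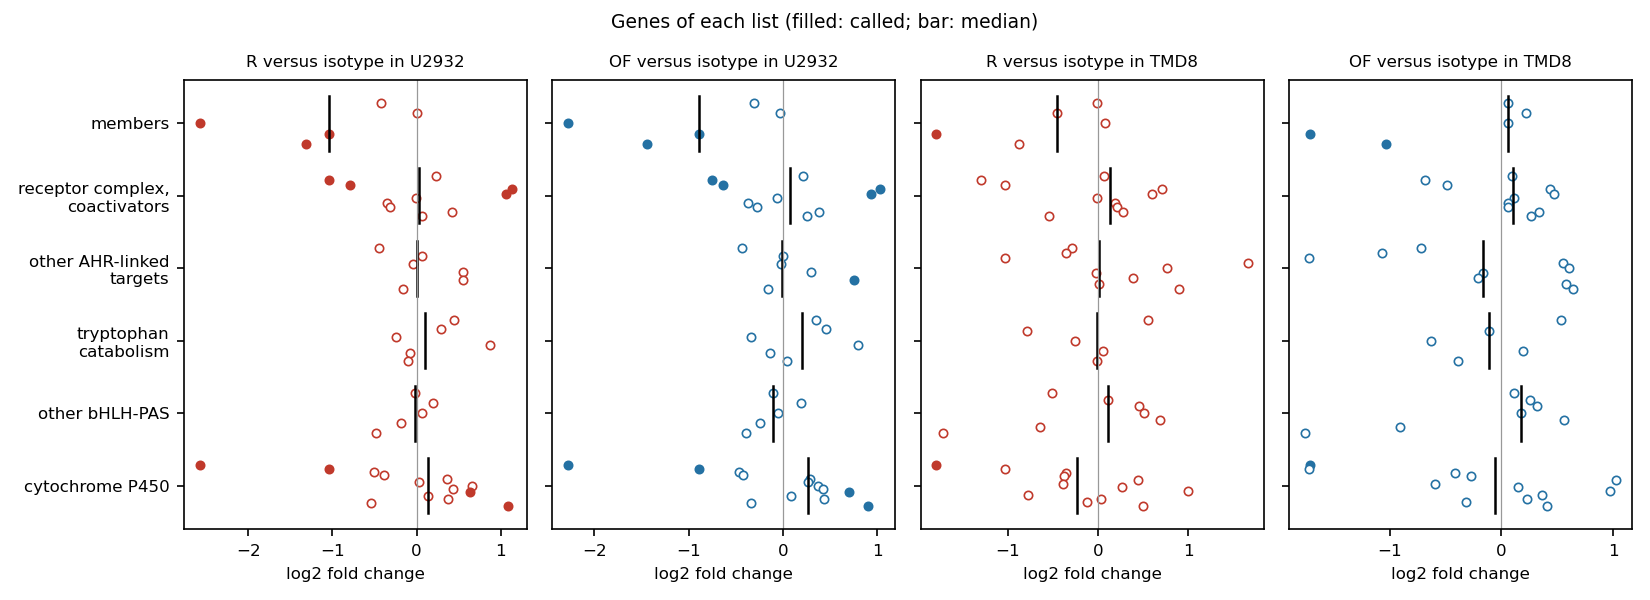
Log2 fold changes against the isotype control of the members and of the listed genes around them that were tested, with 1 point per gene, filled where called, and a bar at each list's median. HSP90AA1 and HSP90AB1 lie near 1 and CREBBP and EP300 below 0 in U2932, and the medians of the 5 lists other than the members lie between -0.23 and 0.27.

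Around the receptor, the 10 genes of its chaperone complex and coactivators were all tested. In U2932 2 rose and 2 fell with each antibody and 6 were not called, where 10.2% of all genes were called with R and 11.1% with OF. The list's median log2 fold change was 0.02 with R and 0.08 with OF. The risers were the HSP90 chaperones that hold the unliganded receptor. HSP90AA1 had 1820 and 2060 CPM with the isotype control, 3990 and 4470 with R and 3990 and 3890 with OF. Its log2 fold change was 1.13 with R (SE 0.08, edgeR adjusted p = 6.9e-11) and 1.03 with OF. HSP90AB1 rose by 1.06 with R and 0.94 with OF. Both encode general chaperones with many clients besides AHR.

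The genes of that list that fell in U2932 encode the histone acetyltransferases CREBBP and EP300. CREBBP had 70.9 and 64.5 CPM with the isotype control, 36.9 and 28.8 with R and 40.2 and 39.8 with OF, and its log2 fold change was -1.04 (SE 0.11, edgeR adjusted p = 1.1e-07) with R and -0.75 with OF. EP300 fell by 0.79 with R and by 0.63 with OF, and its call was lost without the R library numbered 2 (-0.57 with R) and without the OF or the isotype library numbered 1 (-0.54 and -0.55 with OF). With all 12 libraries in 1 fit neither gene was called, with edgeR adjusted p of 0.205 and 0.345 for CREBBP and 0.362 and 0.456 for EP300 with R and OF. In TMD8 0 of the 10 were called with either antibody, where 0.647% of all genes were called with R and 0.815% with OF. The log2 fold changes there went the same way as in U2932. With R they were -1.29 for CREBBP, -1.03 for EP300, 0.71 for HSP90AA1 and 0.60 for HSP90AB1, and with OF -0.68, -0.49, 0.44 and 0.47. CREBBP had 94.1 and 240 CPM in the TMD8 isotype libraries, the higher value in the one that stands apart. PTGES3 and NCOA3, the next by level, had log2 fold changes of 0.42 and -0.32 with R in U2932, below 1.5-fold.

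Of 17 other genes linked to the receptor, 6 were tested in U2932 and 9 in TMD8. In U2932 0 were called with R and 1 rose with OF, where 10.2% and 11.1% of all genes were called. The riser was SLC7A5, a transporter of tryptophan and other large amino acids. It had 321 and 248 CPM under the isotype control and 473 and 489 with OF (log2 fold change 0.76). Its call was lost with all 12 libraries in 1 fit (edgeR adjusted p = 0.184). In TMD8 0 were called with either antibody, where 0.647% of all genes were called with R and 0.815% with OF. CYP1A2, which lies beside CYP1A1 and encodes the related liver P450, had 31 and 39 counts in the TMD8 isotype libraries, 9 and 15 with R and 9 and 5 with OF. Every antibody library was below both isotype libraries, but with log2 fold changes of -1.03 (edgeR adjusted p = 0.313) and -1.72 (edgeR adjusted p = 0.182) it was not called. ALDH3A1, an aldehyde dehydrogenase, had 12 and 24 counts in the TMD8 isotype libraries, 10 and 9 with R and 5 and 6 with OF. NQO1, a quinone reductase, had log2 fold changes of 0.55 and 0.30 in U2932 and 0.39 and -0.21 in TMD8, and the efflux pump ABCG2 had -0.29 and -0.72 in TMD8, none of them called. The values of VAV3, a guanine nucleotide exchange factor, were -0.16 with either antibody in U2932 and 0.90 and 0.64 in TMD8, and those of HES1, a transcriptional repressor, -0.45 and -0.43 in U2932 and 1.66 and 0.55 in TMD8.

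Among 12 genes of tryptophan catabolism, which can make ligands of the receptor, 6 were tested in U2932 and 5 in TMD8, and 0 were called with either antibody. Over all genes 10.2% and 11.1% were called with R and OF in U2932, and 0.647% and 0.815% in TMD8. With R in U2932 the log2 fold changes of KYNU, KMO, KYAT3, AFMID and IL4I1 were -0.10, -0.25, -0.08, 0.44 and 0.29, and with R in TMD8 -0.01, -0.25, 0.06, 0.55 and -0.79. With OF they were 0.05, -0.34, -0.14, 0.35 and 0.46 in U2932 and -0.39, -0.63, 0.19, 0.53 and -0.11 in TMD8. IL4I1 differed between R and OF in TMD8 by -0.67 (R minus OF, SE 0.17, edgeR adjusted p = 0.733) and was not called. The study names IL4I1 among the genes that OF raised over R in that line at a false discovery rate of 0.1, which was not recovered here. Among 13 other bHLH-PAS genes, the family of AHR and ARNT, 5 were tested in U2932 and 7 in TMD8, and 0 were called with either antibody. HIF1A, the hypoxia factor that also pairs with ARNT, had log2 fold changes of -0.18 and -0.24 in U2932 and 0.69 and 0.56 in TMD8. The clock genes BMAL1 and BMAL2 had -0.02 and 0.20 with R in U2932 and 0.11 and 0.45 in TMD8. NPAS1 had -0.48 and -0.64 with R, and NPAS2 and ARNT2, tested in TMD8 alone, had -1.72 and -0.51.

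Among all 55 protein-coding cytochrome P450 genes, 13 were tested in U2932 and 12 in TMD8. In U2932 2 fell with each antibody, the members CYP1A1 and CYP1B1, and 2 rose. Over all genes 10.2% were called there with R and 11.1% with OF. CYP51A1, the sterol demethylase of cholesterol synthesis, had 2.91 and 2.67 CPM with the isotype control, 7.01 and 4.87 with R and 5.31 and 5.06 with OF (log2 fold changes 1.09 and 0.90). CYP2U1, a fatty acid hydroxylase, had 14.8 and 15.4 CPM with the isotype control, 21.6 and 25.4 with R and 23.4 and 25.4 with OF (0.64 and 0.70). In TMD8 CYP1A1 was the 1 P450 gene called with either antibody, where 0.647% of all genes were called with R and 0.815% with OF. The median log2 fold change of the family was 0.14 and 0.27 in U2932 and -0.23 and -0.06 in TMD8 with R and OF, with CYP1A1 and CYP1B1 included.

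The lists also differed between the lines under the isotype control. Of 10 receptor complex genes 4 were lower in U2932 and 0 higher, and those were again CREBBP, EP300, HSP90AA1 and HSP90AB1, with log2 fold changes of -1.30, -1.13, -0.69 and -1.12. Without the TMD8 isotype library numbered 2 CREBBP and EP300 had -0.48 and -0.23 and were no longer called, and HSP90AA1 and HSP90AB1 had -0.94 and -1.08 and still were. Of 9 other targets tested 4 were higher and 4 lower in U2932, among them HES1 with 896 and 983 counts in the U2932 isotype libraries and 12 and 10 in those of TMD8. Of 7 tryptophan genes 1 was higher in U2932, KYAT3, and 3 were lower, KYNU, IL4I1 and KMO. Of 7 bHLH-PAS genes 3 were higher and 2 lower, and of 18 P450 genes 6 were higher and 7 lower. These shares stand beside the 56.1% called over all genes.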

How the data were processed

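Raw RNA-seq counts per Ensembl gene were used as deposited. Per the labels and the study's methods, the authors prepared libraries with the NEBNext Ultra II RNA kit, trimmed reads with Trim Galore 0.6.0 and aligned them to GRCh38 with STAR 2.7.0e. The submitters' processing notes also list cutadapt, FastQC and DESeq2 1.26.0. The annotation release, strand setting and treatment of multi-mapping reads are not given in the sources used here, so overlapping and near-identical genes are uncertain. Totals were 15440226 to 27110612 counts per library, and low counts limit the precision of CYP1A1 and CYP1B1 in U2932. Intervals of ratios of counts and floors cover counting error only, and those of log2 fold changes come from the edgeR fit and include the spread between libraries.

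Symbols, positions and lengths came from GENCODE release 29. Genes passed edgeR's filterByExpr (minimum count 10), were scaled by TMM and tested with edgeR 4.0.16 (R 4.3.3) quasi-likelihood F tests on the 6 libraries of a cell line, or on all 12 for cell lines and interactions, with Benjamini-Hochberg adjustment over all genes tested. CPM used the 12-library scaling, and log2 CPM a prior count of 2. A gene was called at adjusted p under 0.1 (0.3 for R versus OF in U2932) and at least 1.5-fold. The tests were run on simulated data with known changes first. The simulated counts had the same spread for all genes, no culture effect and no library that stands apart, so they do not cover the TMD8 setting. Alternatives were DESeq2 1.42.0, other scalings and filters, a GC content correction, a replicate block, and libraries left out. Promoter windows came from RefSeq.

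The members and lists were chosen with earlier results of these data known, so no list is independent evidence. Named were the members, at most 6 genes of each list (called genes by size of change, then by level), all P450 genes as a description, and the 5 genes most like each member. SLC7A5, the P450 genes with values and the marker genes with values were named after their values were seen. Same-numbered libraries of a line came from 1 culture, by the study's methods, and the main tests hold no term for it. The deviations of same-numbered U2932 libraries correlated at -0.0478, 0.104 and -7e-04, and those of TMD8 at 0.222, 0.227 and 0.687.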

Additional observations from a re-analysis of the deposited data

Results flagged for a closer look

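The response of HES1 to R differed between the lines, by a log2 difference of -2.14 (U2932 minus TMD8, SE 0.35, edgeR interaction, adjusted p = 0.0511). In U2932 it had 896 and 983 counts with the isotype control and 505 and 612 with R, and in TMD8 12 and 10 against 21 and 29. Under the 20 alternatives the difference ran from -2.6 to -1.65 and passed the limit in 12 of them. The 8 others each left out 1 library: any of the 6 U2932 libraries or either TMD8 R library. Few or no other genes were called for the R response in those fits either.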

How the results depend on the processing

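In U2932 the counts of 3 called members with R and with OF stayed at 3 or, without the fold limit, became 4 by adding AHR. CYP1A1, TIPARP and CYP1B1 were called in all 15 alternatives for each antibody. For CYP1A1 the log2 fold change ran from -2.68 to -2.57 with R and from -2.4 to -2.17 with OF. In TMD8 the count of 1 called member with R became 0 at an adjusted p under 0.05. It became 2, by adding TIPARP, with library size only, with at least 10 counts in every library, with no filter, with the GC content correction, with the replicate block, with the replicate block and GC content correction, with DESeq2, with all 12 libraries in 1 fit, and with the OF and isotype libraries numbered 2 both left out. That last fit leaves 1 library each for OF and isotype, assumed to vary like the R libraries. The cause was not tested. Leaving out 1 library at a time gave 0 to 2. With OF the count of 2 became 0 at an adjusted p under 0.05, 1 with library size only, and 0 to 2 when 1 library was left out. Leaving out either R library lost the call of CYP1A1 with R (log2 fold change -1.54 and -2.07). Leaving out either R or either OF library, or the isotype library numbered 1, lost those with OF. Fewer samples enter those fits, and all or nearly all other genes lost the same calls there too. Over the 16 alternatives CYP1A1 ran from -2.07 to -1.54 with R and from -1.78 to -1.65 with OF, and TIPARP from -1.01 to -0.81 and from -1.1 to -0.96. Between the lines 5 called members became 3 with at least 10 counts in every library, since that filter removes CYP1B1 and AHRR, and leaving out 1 library gave 4 to 5. For the R response CYP1A1 had a log2 difference of -0.84 with the libraries numbered 2 both left out, in place of -0.79. The replicate block changed no other member's call. No called member changed sign.

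Counts over all genes depended on the fit in TMD8. With R 92 genes were called, against 1565 with the replicate block, 1389 with the replicate block and GC content correction, 458 with the GC content correction, 702 by DESeq2, 1093 with no filter, 171 with at least 10 counts in every library and 1359 with all 12 libraries in 1 fit. With OF 116 became 1387, 1361, 439, 590, 908, 152 and 1170 under the same settings, and 25 with library size only. In U2932 the 1494 and 1625 genes became 800 and 904 with all 12 libraries in 1 fit, where CREBBP, EP300 and SLC7A5 were no longer called, and 5005 and 5334 without the fold limit. Library size only moved the median of all genes to -0.12 (U2932, R), -0.16 (TMD8, R) and 0.11 (between lines).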
